A study of Mus musculus with 19 samples.

Results

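The 35 genes followed here encode the machinery that activates fatty acids, carries them into mitochondria and peroxisomes and oxidises them there, with Bdh1 standing for the ketone body branch and Pdk4, Angptl4 and Ucp2 for linked fuel control. They were named in a list drawn up with earlier results of these data known, no value served as a criterion for a gene, and the probe set of highest mean stood for each gene. Of the 35 genes, 31 had a probe set of their own among the 22180 genes of the array. Acsl3 and Cpt1b had only probe sets shared with other genes, and Acsl1 and Ucp2 were not matched to a probe set here, so these 4 were not analysed.

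Whole liver was taken from 19 mice, 2 to 3 months of age, after 4 weeks of either high-fat feeding (HFD) or a normal diet (ND). On HFD there were 3 KO, 4 TG and 3 WT mice, and on ND there were 3 of each genotype, with 1 array per mouse. The genotype codes are not spelled out in the labels, and the study is about Kcp (Kielin/chordin-like protein), a secreted modulator of BMP and TGF-beta signalling. Neither the promoter that drives the transgene nor the deleted part of the gene, strain, sex, time of harvest or feeding state is given. Values are log2 expression per probe set, a gene is said to rise or fall where its adjusted p was under 0.05 over all 22180 genes, and SE is the moderated standard error of a log2 difference. Levels are not compared between members, since probe sets differ in brightness for the same amount of RNA.

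In liver, long-chain fatty acids are first joined to coenzyme A by acyl-CoA synthetases. Carnitine palmitoyltransferase 1 (Cpt1a) then commits them to the mitochondrion, where a cycle of dehydrogenases, hydratases and thiolases shortens them and passes electrons through the ETF proteins to the respiratory chain. Peroxisomes shorten very long and branched chains and hand the products back as carnitine esters, and the acetyl-CoA formed in mitochondria feeds ketone body synthesis. The nuclear receptor Ppara, which binds direct repeats of AGGTCA with 1 base between the copies, is known to drive many of these genes during fasting.

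The promoters of Cpt1a, Crot and Pex11a are shown because these were the members that passed in more than 1 comparison. They are RefSeq windows of GRCm38.p6, from 250 bases before to 50 after the start, at chr19:3323051-3323350 on the plus strand for Cpt1a, chr5:8997097-8997396 on the minus strand for Crot and chr7:79743082-79743381 on the minus strand for Pex11a, each written 5′ to 3′ along its gene. Capitals mark the hexamer AGGTCA in either orientation.
Cpt1a: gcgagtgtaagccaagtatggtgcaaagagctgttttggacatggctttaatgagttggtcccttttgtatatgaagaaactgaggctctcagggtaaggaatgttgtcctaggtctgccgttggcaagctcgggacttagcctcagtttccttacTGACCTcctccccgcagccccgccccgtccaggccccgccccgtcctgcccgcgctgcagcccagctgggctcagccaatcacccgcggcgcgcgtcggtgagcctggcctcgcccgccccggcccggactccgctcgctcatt
Crot: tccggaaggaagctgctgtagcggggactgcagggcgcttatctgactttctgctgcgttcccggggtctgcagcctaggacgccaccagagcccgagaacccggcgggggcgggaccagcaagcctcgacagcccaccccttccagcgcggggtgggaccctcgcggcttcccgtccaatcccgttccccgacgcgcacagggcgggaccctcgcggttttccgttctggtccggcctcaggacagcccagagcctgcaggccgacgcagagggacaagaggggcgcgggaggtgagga
Pex11a: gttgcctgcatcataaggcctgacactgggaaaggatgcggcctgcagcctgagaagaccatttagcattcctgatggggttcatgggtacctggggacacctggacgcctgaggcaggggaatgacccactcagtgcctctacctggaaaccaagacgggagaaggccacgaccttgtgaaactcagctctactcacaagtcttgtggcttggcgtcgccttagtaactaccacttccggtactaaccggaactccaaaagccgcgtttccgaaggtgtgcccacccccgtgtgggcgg
The Cpt1a window held 1 such hexamer on the opposite strand, and the Crot and Pex11a windows held none. Of the 31 measured members 26 had a window, 28 windows in all, and 3 of these (10.7%) held the hexamer, against 16.3% of the 32851 windows of all genes. The direct repeat, AGGTCA then any 1 base then AGGTCA, searched on both strands, was in 0 of the 28 windows and in 0.0396% of all. With the T of each hexamer left free (AGGNCA in both places) the counts were again 0 of 28, and 0.381% of all. At shares this low over all windows, a count of 0 in 28 windows was likely whatever the genes. Sites outside the windows, or further from this pattern, were not searched, so that nothing is concluded on binding by Ppara. The windows of Hadha and Hadhb, which run in opposite directions, overlapped by 228 bases.

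Some facts of the whole series stand beside every result. Hepatocyte markers were bright throughout, with Alb between 12.26 and 12.51, and markers of adipocytes and skeletal muscle were near the floor (Adipoq at most 1.06, Ckm at most 2.04). Kcp lay between 5.35 and 5.81 in all TG arrays, while KO arrays (1.64 to 2.30) overlapped with WT arrays (1.77 to 2.82). Whether the Kcp probe set lies in the deleted part is not given, so that it checks the TG label and not the KO label. All 10 markers of Kupffer cells and macrophages rose in TG against WT on both diets, with median differences of 1.42 on HFD and 1.63 on ND, whereas none of the 6 hepatocyte markers passed (medians 0.14 and -0.02). Single markers also passed in comparisons without TG. Marco fell in HFD against ND in WT (-1.81) and, with the bile duct marker Sox9 (-1.69), in KO against WT on ND (-1.76). The stellate cell marker Reln rose in HFD against ND in KO (0.71), and the macrophage marker Folr2 rose in KO against WT on HFD (1.30). In both of these comparisons all 10 macrophage, all 5 stellate cell and all 5 endothelial markers were above 0. Their medians were 0.54, 0.32 and 0.17 in HFD against ND in KO, and 0.46, 0.42 and 0.26 in KO against WT on HFD. The 6 hepatocyte markers had medians of 0.05 and 0.02 there. The part of all these markers in the results was not tested. In whole tissue, fewer hepatocytes and less RNA per hepatocyte cannot be told apart. A clock score, taken as the mean of 9 evening-phase clock genes less the mean of 5 morning-phase ones, averaged 2.21 in KO, 1.81 in TG and 2.00 in WT on HFD, and 1.67 in KO, -1.48 in TG and -0.89 in WT on ND. The 2 ND groups with low scores therefore stood apart from the other 4 groups. In comparisons across this split, the clock score and diet or genotype cannot be told apart. The same holds for the values given below with the score in the model. The 9 evening genes did not all move together. In KO on ND, 7 of them rose against WT and against TG, while Nr1d1 fell (-2.30 and -2.01). Of the TG HFD arrays, replicate 2 correlated least with the arrays of its group (mean 0.9854 across genes, against 0.987 or more in all other arrays) and the highest mean of 4 neutrophil markers (1.89, against at most 1.25 elsewhere).

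Among the 6 groups, 7 of the 31 members differed in the moderated F test (22.6%, against 8.7% of all genes). The share was 17.3% among the 9657 genes with a mean of at least 2 and 21% among the 2722 with a mean of at least 6, so that the members stood close to genes of like brightness. These were Crot, the peroxisomal carnitine octanoyltransferase (adjusted p = 0.000813), Cpt1a (adjusted p = 0.00207), Pex11a, which promotes peroxisome division (adjusted p = 0.00371), the carnitine acetyltransferase Crat, the enoyl-CoA isomerase Eci1, the ketone body dehydrogenase Bdh1 and the lipase inhibitor Angptl4 (adjusted p between 0.0167 and 0.0279). Of the members 1 of 31 lay below a mean of 2, against 56.46% of all genes, and for this reason the share called among genes with a mean of at least 2 is given beside each comparison. That dim member was Hadhb, the beta subunit of the trifunctional protein, whose probe set lay between 0.63 and 1.56, so that a difference could be understated. Among the 2722 genes with a mean of at least 6, the share called for HFD against ND was 3.97% in WT, 2.09% in KO and 3.38% in TG. For TG against WT it was 8.12% on HFD and 2.46% on ND. For KO on ND it was 8.67% against WT and 9.96% against TG, and on HFD 0.698% and 5.25%. The highest group mean was found in WT on HFD for 13 members and in KO on ND for 9. The lowest was in TG on HFD for 12 and in TG on ND for 10.

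**Figure D1:**
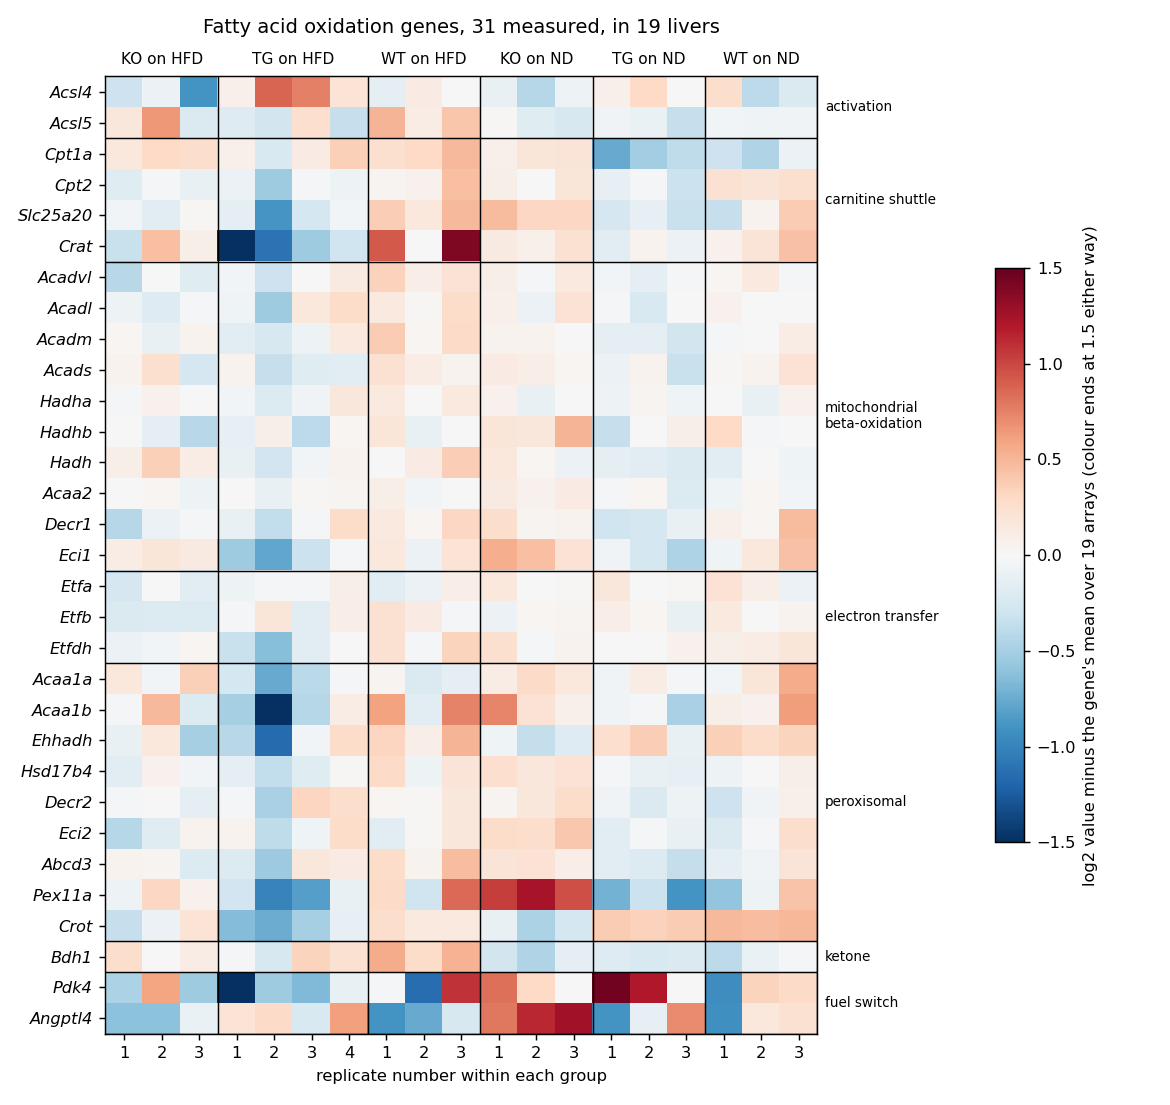
Each cell is the log2 value of 1 of the 31 measured genes (rows, by role) in 1 of 19 livers (columns, by group), minus the gene's mean over all arrays, with blue below and red above. In replicate 2 of TG on HFD 16 of 31 members had their lowest value of all 19 arrays, and Pex11a and Angptl4 were high in all 3 KO livers on ND.

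The high-fat diet was compared with the normal diet within each genotype. In WT, 2 of 31 members rose and none fell (6.45%, against 1.32% of all genes, of which 0.753% rose and 0.568% fell, and 2.58% of those with a mean of at least 2). Cpt1a, the gate of mitochondrial uptake, had 9.43, 9.48 and 9.67 on HFD, against 8.87, 8.73 and 9.10 on ND. All HFD values lay above all ND values, a 1.55-fold rise (log2 0.63, SE 0.14, adjusted p = 0.0351). Bdh1, which interconverts the ketone bodies acetoacetate and beta-hydroxybutyrate, had 7.61, 7.33 and 7.57 on HFD, against 6.66, 6.95 and 7.04 on ND, again without overlap (1.54-fold, log2 0.62, SE 0.15, adjusted p = 0.0471). Arrays did not overlap for 4 members that were higher and 1 that was lower on HFD, while 15.1% of all genes did not overlap. Here and below, this share counts both directions and takes in dim genes, and it was not taken among bright genes alone. Of the enzymes of the mitochondrial spiral none passed. Their 10 differences lay between -0.08 and 0.24 and those of the 9 peroxisomal genes lay between -0.34 and 0.36. Acadm, the medium-chain dehydrogenase, had 10.90, 10.55 and 10.80 on HFD, against 10.49, 10.51 and 10.63 on ND, and Hadha, the alpha subunit of the trifunctional protein, had 9.56, 9.40 and 9.56 on HFD, against 9.40, 9.30 and 9.47 on ND. Both overlapped between the diets. Acadm differed by 0.21 (SE 0.12, adjusted p = 0.559), Hadha by 0.12 (SE 0.11, adjusted p = 0.776) and Ehhadh, the peroxisomal bifunctional enzyme, by -0.01 (SE 0.26, adjusted p = 0.997). The median of the 31 members was 0.11, against 0.00399 over all genes, and with the clock score in the model it was -0.09, with 18 of 31 below 0. Leaving out any of 5 of the 6 arrays ended the call of Cpt1a (adjusted p up to 0.164, when WT ND replicate 2 was dropped) and that of Bdh1 (up to 0.202, when WT ND replicate 1 was dropped). The clock score differed by 2.90 between these groups, and with the score in the model the Cpt1a difference was -0.01 (SE 0.30, adjusted p = 1).

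In KO livers 1 of 31 members fell and none rose (3.23%, against 0.803% of all genes, of which 0.46% rose and 0.343% fell, and 1.61% of those with a mean of at least 2). Angptl4, a secreted inhibitor of lipoprotein lipase, had 5.46, 5.46 and 5.98 on HFD, against 6.87, 7.21 and 7.34 on ND. The groups did not overlap and HFD stood at 0.352 of the ND level (log2 -1.51, SE 0.35, adjusted p = 0.0498). This call ended when any 1 of the 6 arrays was dropped (adjusted p up to 0.187, for KO ND replicate 2). Pex11a had 7.18, 7.57 and 7.32 on HFD, against 8.29, 8.49 and 8.23 on ND, lower in every HFD array but short of the threshold (-0.98, SE 0.29, adjusted p = 0.134). Eci2, an enoyl-CoA isomerase found in peroxisomes and mitochondria, had 7.06, 7.31 and 7.54 on HFD, against 7.77, 7.76 and 7.90 on ND (-0.51, SE 0.17, adjusted p = 0.186). In all, 24 of the 31 differences were below 0, where 49.1% of all genes were, and the median was -0.19. Arrays did not overlap for 13 members that were lower and 1 that was higher on HFD, which was Bdh1 (0.41, SE 0.15, adjusted p = 0.262), while 17.1% of all genes did not overlap. Cpt1a was already at 9.26, 9.37 and 9.38 on ND in KO, close to the 9.34, 9.49 and 9.45 seen on HFD (0.09, SE 0.14, adjusted p = 0.894, with a 95% interval of -0.21 to 0.40). The clock score differed by 0.55 between these groups. The macrophage, stellate cell and endothelial markers given above leaned upward here, and their part was not tested.

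In TG livers 1 member rose and 1 fell (6.45%, against 0.906% of all genes, of which 0.397% rose and 0.509% fell, and 1.97% of those with a mean of at least 2). Cpt1a had 9.26, 8.96, 9.31 and 9.54 on HFD, against 8.43, 8.67 and 8.80 on ND, without overlap (1.55-fold, log2 0.63, SE 0.13, adjusted p = 0.0308). Crot, which forms medium-chain carnitine esters for export from the peroxisome, had 8.77, 8.68, 8.92 and 9.30 on HFD, against 9.80, 9.76 and 9.80 on ND. Every HFD array lay below every ND array, at 0.546 of the ND level (log2 -0.87, SE 0.14, adjusted p = 0.00431). Pdk4, the kinase that shuts pyruvate dehydrogenase, had 2.27, 3.39, 3.26 and 3.81 on HFD, against 5.36, 5.12 and 3.91 on ND, lower on average but short of the threshold (-1.61, SE 0.49, adjusted p = 0.171). The median of the members was 0.02, with 17 above and 14 below 0. This balance turned to 8 above and 23 below with the clock score in the model (median -0.14), and to 11 above and 20 below without TG HFD replicate 4 (median -0.05). The Crot call held with each of the 7 arrays dropped in turn, and the Cpt1a call ended for 5 of them (adjusted p up to 0.198, for TG ND replicate 1). The clock score differed by 3.29. With it in the model the difference was -0.09 for Cpt1a (SE 0.33, adjusted p = 0.998) and -0.99 for Crot (SE 0.41, adjusted p = 0.998), and 0 genes passed in this comparison.

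**Figure D2:**
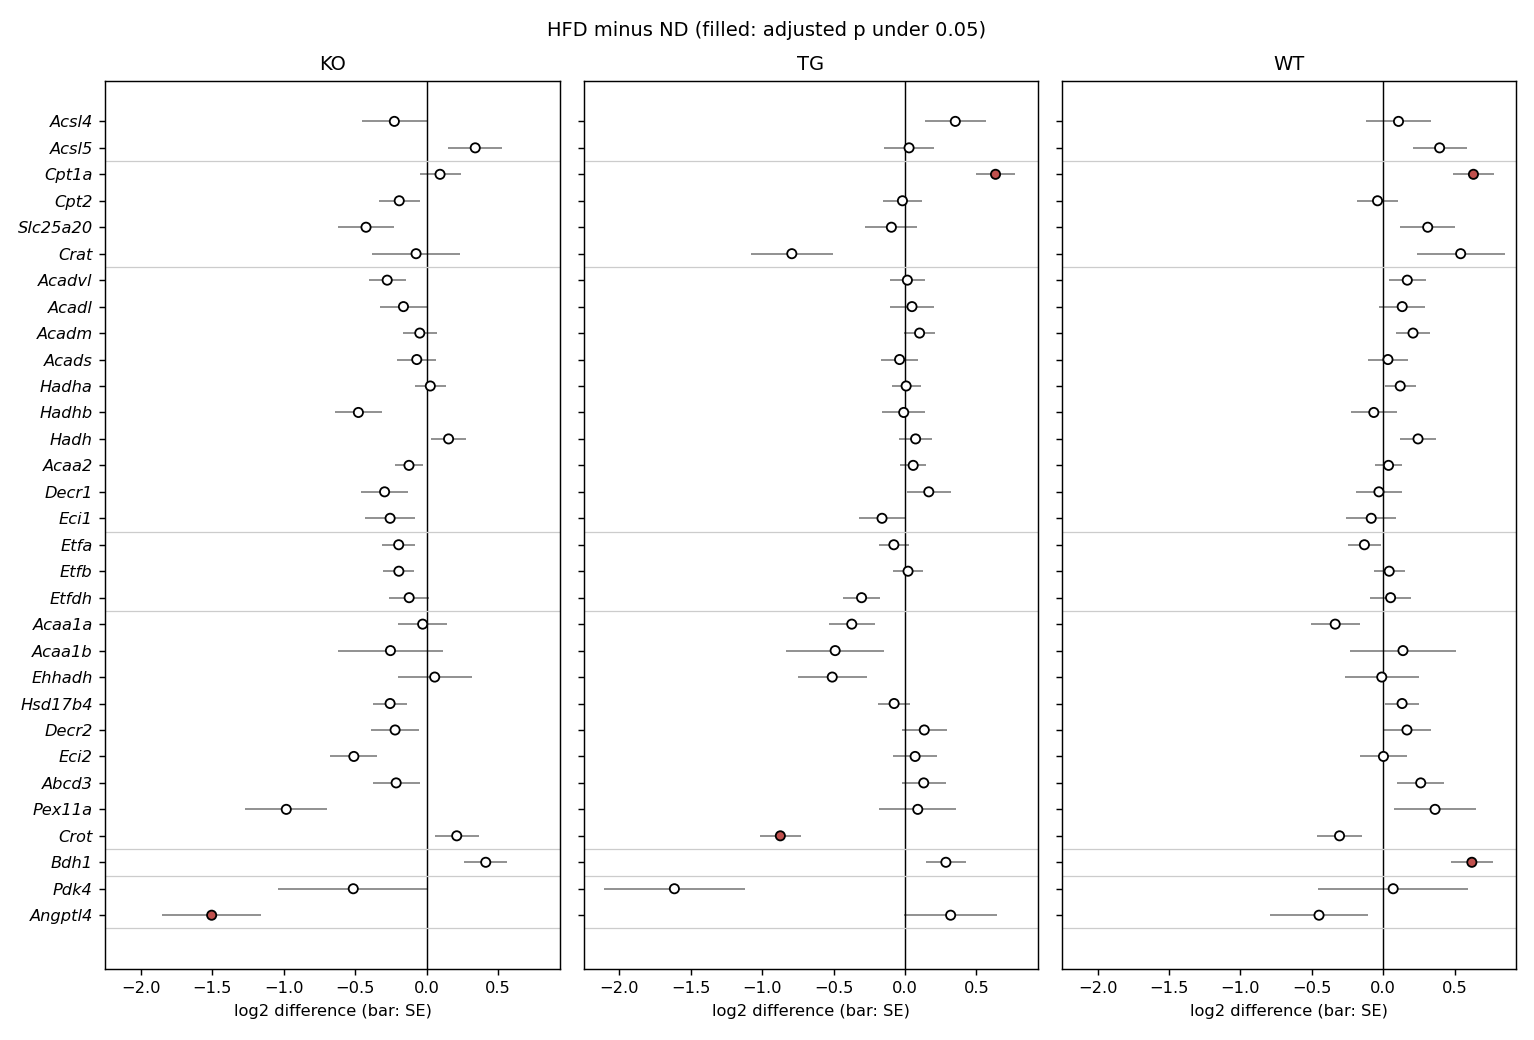
Points are log2 differences between HFD and ND for the 31 members in KO, TG and WT livers, bars are the moderated SE, and filled points passed at an adjusted p under 0.05. Cpt1a stood at 0.63 in TG and in WT and at 0.09 in KO, and most points in KO lay left of 0.

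TG was set against WT on each diet. On HFD, 2 of the 31 members fell and none rose (6.45%, against 3.57% of all genes, of which 1.68% rose and 1.88% fell). Among genes with a mean of at least 2 the share called was 7.09%, so that members were not called more often than those. Both members make short or medium-chain carnitine esters. Crat had 4.56, 4.95, 5.53 and 5.76 in TG, against 6.98, 6.05 and 7.46 in WT. The TG values all lay below the WT values, averaging 5.20 ± 0.55 (SD, n = 4) in TG and 6.83 ± 0.72 (SD, n = 3) in WT, or 0.323 of the WT level (log2 -1.63, SE 0.29, adjusted p = 0.00327). Crot had 8.77, 8.68, 8.92 and 9.30 in TG, against 9.68, 9.56 and 9.56 in WT (log2 -0.68, SE 0.14, adjusted p = 0.0115). There was no overlap, but the Crot call was lost without WT HFD replicate 1 (adjusted p = 0.0626). Crat has another probe set, near the floor at a mean of 0.58, that was not used.

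Most of the remaining members on HFD leaned the same way, and none passed. Slc25a20, the carnitine-acylcarnitine translocase, had 6.81, 6.06, 6.68 and 6.90 in TG, against 7.31, 7.10 and 7.42 in WT, just short of a call (-0.67, SE 0.18, adjusted p = 0.0502). Etfdh, which hands electrons from ETF to ubiquinone, had 9.01, 8.70, 9.18 and 9.35 in TG, against 9.57, 9.31 and 9.67 in WT (-0.46, SE 0.13, adjusted p = 0.0653). These 2 groups overlapped by 1 array of each. The peroxisomal thiolase Acaa1b had 8.08, 6.72, 8.15 and 8.69 in TG, against 9.18, 8.41 and 9.33 in WT (-1.07, SE 0.34, adjusted p = 0.106). Acaa1a and Acaa1b are near-identical copies and may share signal. All 10 mitochondrial beta-oxidation genes and all 9 peroxisomal genes had a difference below 0, with medians of -0.24 and -0.38, and Acadm stood at -0.32 (SE 0.11, adjusted p = 0.142), Hadha at -0.13 (SE 0.10, adjusted p = 0.633), Ehhadh at -0.65 (SE 0.24, adjusted p = 0.178) and Cpt1a at -0.26 (SE 0.13, adjusted p = 0.386). Over the 31 members 28 were below 0, with a median of -0.29, while 50.8% of all genes, and 54% of the 9657 genes with a mean of at least 2, were below 0. The 3 above 0 were Angptl4 (0.85, SE 0.32, adjusted p = 0.191), the arachidonate-preferring synthetase Acsl4 (0.49, SE 0.21, adjusted p = 0.274) and Etfa (0.04, SE 0.11, adjusted p = 0.922). Angptl4 had 6.28, 6.36, 5.85 and 6.69 in TG, against 5.18, 5.32 and 5.84 in WT, without overlap. TG arrays lay wholly below WT arrays for 5 members and above for 1, while 12.3% of all genes did not overlap.

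TG HFD replicate 2 weighed on this picture. It was the lowest of the 4 TG HFD arrays for 23 members. Without it the median was -0.22, with 25 below 0 and 10 members at an unadjusted p under 0.05, against 19 with it, and Crat and Crot still passed. Without TG HFD replicate 4, the highest of the group for 22 members, 7 members passed in place of 2. The clock score differed by -0.19 between TG and WT on HFD, and with it in the model Crat (-1.60, adjusted p = 0.00624) and Crot (-0.68, adjusted p = 0.0188) passed. With so small a difference in the score the model could hardly move these values, so that the part of the clock was not tested. The macrophage markers given above moved with this comparison, as did Reln of 5 stellate cell markers (0.43, adjusted p = 0.0183) and Cd4 of 4 T cell markers (1.13, adjusted p = 0.0348), and their part in it was not tested. On ND, Dcn and Reln rose among the stellate cell markers (0.60 and 0.47) and no T cell marker passed. The clock score and the markers are drawn beside the 2 largest roles in the plot of list means.

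On ND no member passed between TG and WT in limma (0%, against 1.3% of all genes, of which 0.924% rose and 0.379% fell, and 2.53% of those with a mean of at least 2), and 3 had an unadjusted p under 0.05. The direction was again downward in 28 of 31 members, with a median of -0.12, while 50.7% of all genes were below 0. All 10 mitochondrial and all 9 peroxisomal genes were below 0 (medians -0.15 each). Cpt2, which rebuilds acyl-CoA inside the mitochondrion, had 7.55, 7.64 and 7.34 in TG, against 7.90, 7.86 and 7.91 in WT. Crat had 5.89, 6.11 and 5.97 in TG, against 6.12, 6.25 and 6.50 in WT (-0.30, SE 0.31, adjusted p = 0.859). For 9 members the TG arrays all lay below the WT arrays, and for none above, while 15.8% of all genes did not overlap. The comparisons on HFD and on ND share no arrays, and 27 of the 31 members were below 0 in both, as were 29.3% of all genes and 32.3% of those with a mean of at least 2. The 31 members were read in the same few mice, so that they are not independent observations. The macrophage markers rose on both diets, as given above, and their part was not tested.

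**Figure D3:**
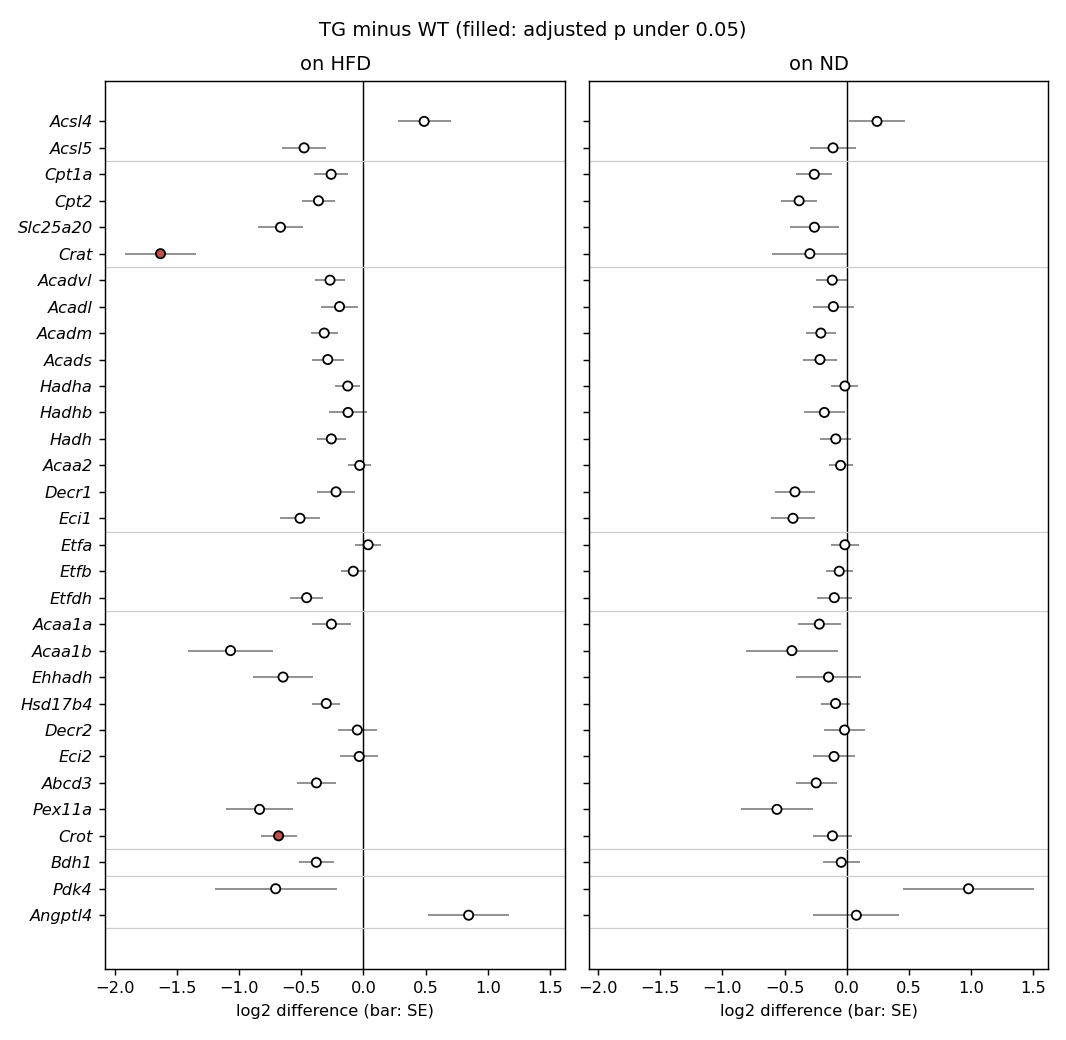
Points are log2 differences between TG and WT for the 31 members on HFD (left) and ND (right), bars are the moderated SE, and filled points passed at an adjusted p under 0.05. On HFD Crat (-1.63) and Crot (-0.68) are filled, and on each diet 28 of 31 points lie left of 0.

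KO was set against WT on each diet. On ND, 1 member rose and 1 fell (6.45%, against 2.98% of all genes, of which 1.38% rose and 1.6% fell), both of them peroxisomal. Among genes with a mean of at least 2 the share called was 6.05%, close to that of the members. Pex11a had 8.29, 8.49 and 8.23 in KO, against 6.67, 7.18 and 7.68 in WT, without overlap (2.23-fold, log2 1.16, SE 0.29, adjusted p = 0.0332). Crot had 9.31, 8.94 and 9.15 in KO, against 9.91, 9.88 and 9.92 in WT, so that the KO arrays all lay below a narrow WT range (0.585 of WT, log2 -0.77, SE 0.15, adjusted p = 0.00832). The other 7 peroxisomal genes did not pass, with Ehhadh at 8.06, 7.77 and 7.93 in KO, against 8.48, 8.40 and 8.46 in WT (-0.52, SE 0.26, adjusted p = 0.403). Angptl4 had 6.87, 7.21 and 7.34 in KO, against 5.16, 6.24 and 6.30 in WT, without overlap but short of a call (1.24, SE 0.35, adjusted p = 0.0635). Cpt1a had 9.26, 9.37 and 9.38 in KO, against 8.87, 8.73 and 9.10 in WT (0.44, SE 0.14, adjusted p = 0.13). In the mitochondrial spiral none of 10 genes passed, with Acadm at 0.02 (SE 0.12) and Hadha at 0.01 (SE 0.11), and the median of all members was 0.02, or -0.08 with the clock score in the model. KO arrays lay wholly above WT arrays for 6 members and below for 3, while 18.1% of all genes did not overlap. The Pex11a call ended when any of 5 of the 6 arrays was dropped (adjusted p up to 0.159, for WT ND replicate 1), and the Crot call only when KO ND replicate 2 was (adjusted p = 0.0565). The clock score differed by 2.56, and with it in the model the differences were 1.09 for Pex11a (SE 0.63, adjusted p = 0.842) and -0.87 for Crot (SE 0.34, adjusted p = 0.64).

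On HFD no member passed between KO and WT in limma (0%, against 0.338% of all genes, of which 0.194% rose and 0.144% fell, and 0.694% of those with a mean of at least 2), and 4 had an unadjusted p under 0.05. Differences were below 0 for 27 of 31 members, with a median of -0.21, while 51% of all genes were below 0. Bdh1 had 7.32, 7.05 and 7.16 in KO, against 7.61, 7.33 and 7.57 in WT, each KO array below each WT array (-0.32, SE 0.15, adjusted p = 0.583). Etfb, the beta subunit of the electron transfer flavoprotein, had 7.62, 7.63 and 7.63 in KO, against 8.06, 7.95 and 7.81 in WT. These KO values hardly varied and lay below all WT values. For 9 members the KO arrays lay wholly below the WT arrays and for none above, while 13.2% of all genes did not overlap. The TG and KO comparisons on HFD share the 3 WT arrays, and the median was -0.29 in TG and -0.21 in KO. In KO against WT on HFD the macrophage, stellate cell and endothelial markers given above leaned upward, and their part was not tested.

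KO was also set against TG. On ND, 3 members rose and 1 fell (12.9%, against 4.2% of all genes, of which 1.71% rose and 2.49% fell, and 8.56% of those with a mean of at least 2). Pex11a had 8.29, 8.49 and 8.23 in KO, against 6.55, 6.94 and 6.36 in TG, 3.30-fold higher without overlap (log2 1.72, SE 0.29, adjusted p = 0.00174). Cpt1a had 9.26, 9.37 and 9.38 in KO, against 8.43, 8.67 and 8.80 in TG (0.70, SE 0.14, adjusted p = 0.00753). Both calls held without each of the 6 arrays in turn. Eci1, which moves double bonds so that unsaturated chains can enter the cycle, had 7.64, 7.55 and 7.31 in KO, against 7.04, 6.84 and 6.64 in TG (0.66, SE 0.17, adjusted p = 0.0375). Crot had 9.31, 8.94 and 9.15 in KO, against 9.80, 9.76 and 9.80 in TG (-0.66, SE 0.15, adjusted p = 0.0179). None of the 4 overlapped, but the Eci1 call ended for 4 of the 6 arrays dropped (adjusted p up to 0.16, for TG ND replicate 3) and the Crot call for 5 (up to 0.106, for KO ND replicate 2). KO arrays lay wholly above TG arrays for 19 members and below for 2, while 21.1% of all genes did not overlap. The median was 0.20, and 0.06 with the clock score in the model. In the same comparison 9 of 10 macrophage markers fell (median of the 10 -1.28), as did Cd3g and Cd4 of 4 T cell markers (-1.36 and -1.35), Reln of 5 stellate cell markers (-0.62) and Sox9 of 4 bile duct markers (-1.92), and their part in the result was not tested. The clock score differed by 3.14, and with it in the model the 4 calls were lost, with Cpt1a at 0.01 (SE 0.33) and Pex11a at 1.64 (SE 0.74).

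On HFD, Acsl4 fell in KO against TG and no other member passed (3.23%, against 2.35% of all genes, of which 1.46% rose and 0.897% fell). Among genes with a mean of at least 2 the share called was 4.6%, above that of the members. It had 6.40, 6.62 and 5.82 in KO, against 6.79, 7.58, 7.47 and 6.92 in TG, without overlap (0.532 of TG, log2 -0.91, SE 0.21, adjusted p = 0.0296). The call ended for 4 of the 7 arrays dropped (adjusted p up to 0.167, for KO HFD replicate 3). Eci1 had 7.21, 7.28 and 7.23 in KO, against 6.56, 6.32, 6.77 and 7.07 in TG, higher in every KO array and short of the threshold (0.56, SE 0.16, adjusted p = 0.0833). The median of the members was 0.08, and -0.02 without TG HFD replicate 2. Of the macrophage markers 4 of 10 fell here, as did Cd4 (-1.14).

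**Figure D4:**
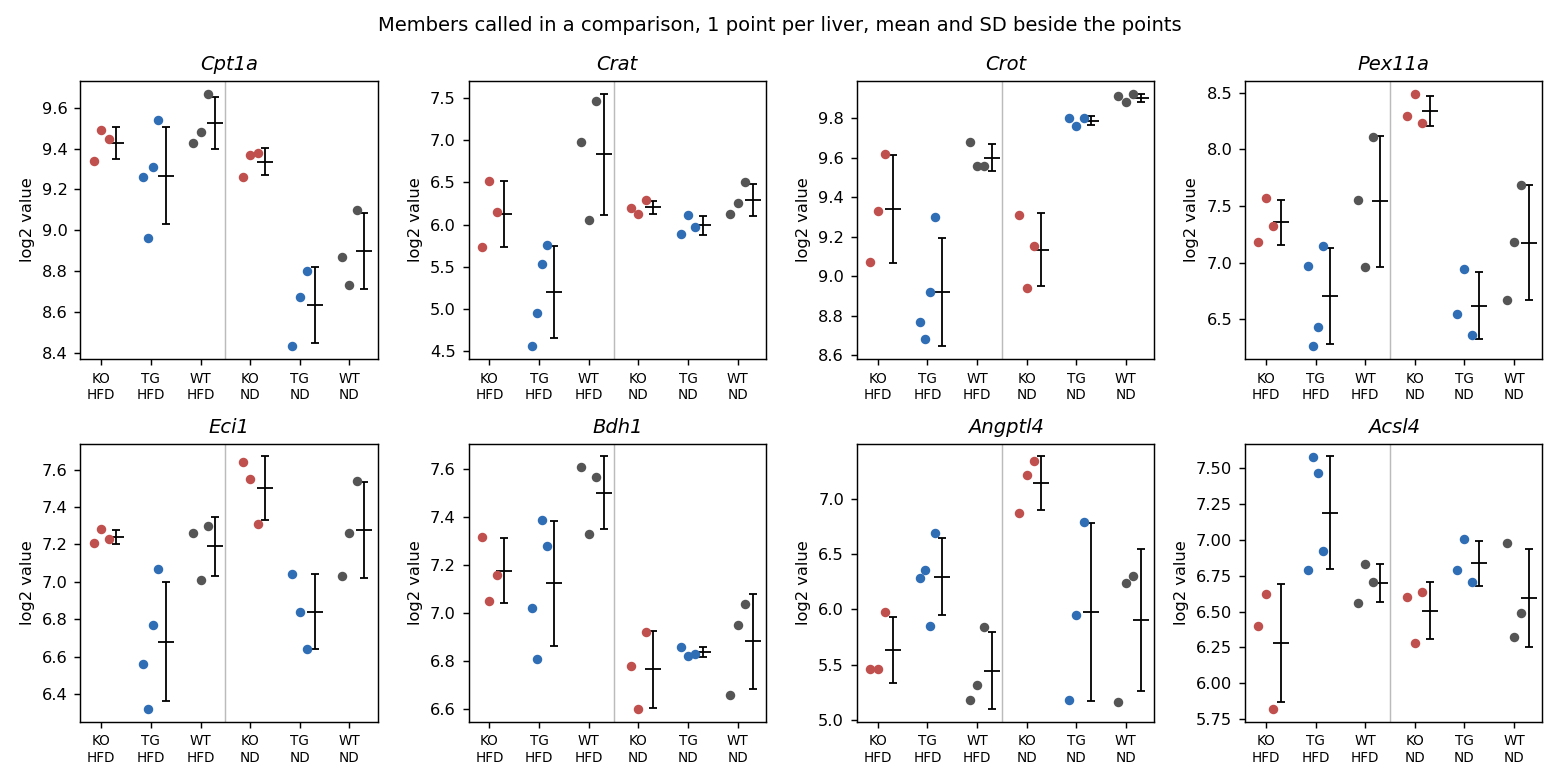
Log2 values of the 8 members that passed in at least 1 comparison of 2 groups, 1 point per liver, with the mean and SD of each group beside its points. Cpt1a was low in TG and WT on ND, Crot was narrow and high in the same groups, and Crat was lowest in TG on HFD.

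Whether the diet effect differed between genotypes was tested directly. For KO against WT no member passed in limma (0%, against 0.825% of all genes, of which 0.446% were higher and 0.379% lower, and 1.66% of those with a mean of at least 2). Of the members 8 had an unadjusted p under 0.05. The diet effect was lower in KO than in WT for 28 of 31 members (median -0.26), where 50% of all genes were below 0. With the clock score in the model it was lower for 23 (median -0.10), and 0 members had an unadjusted p under 0.05. Pex11a had the largest difference of diet effects (-1.35, SE 0.40, adjusted p = 0.155), and that of Cpt1a was -0.54 (SE 0.20, adjusted p = 0.314). For TG against WT no member passed either (0%, against 0.221% of all genes, of which 0.0631% were higher and 0.158% lower, and 0.425% of those with a mean of at least 2). The 3 members at an unadjusted p under 0.05 included Crat (-1.33, SE 0.42, adjusted p = 0.382) and Pdk4 (-1.68, SE 0.72, adjusted p = 0.582). The diet effects in Cpt1a differed by 0.00 between TG and WT (95% interval -0.41 to 0.42).

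**Figure D5:**
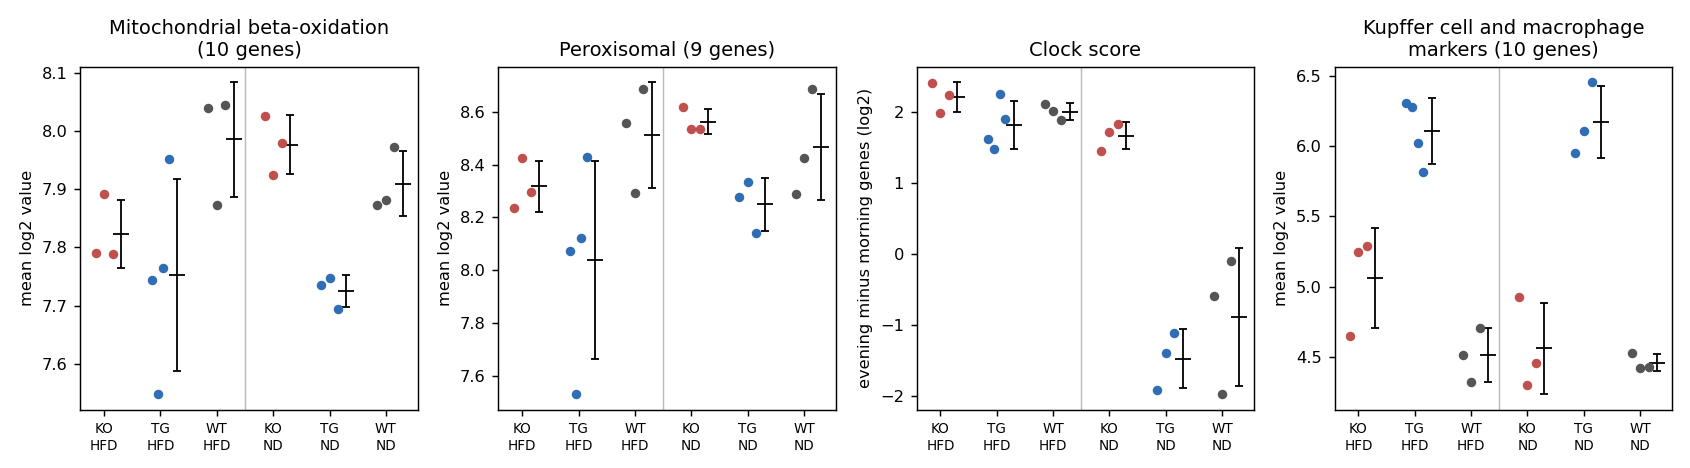
Mean log2 values of 10 mitochondrial and 9 peroxisomal members, the clock score and the mean of 10 macrophage markers, 1 point per liver, with the mean and SD of each group beside its points. The TG arrays on ND have the narrowest mitochondrial range, replicate 2 of TG on HFD is lowest in both oxidation panels, and TG and WT on ND are alone below 0 in the clock score.

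Other genes of the pathway were counted from lists of which 33 oxidation and ketone genes and 19 regulators were measured. On HFD in TG against WT, 4 of the 33 fell and 1 rose, while 1.88% of all genes fell and 1.68% rose. Of genes with a mean of at least 2, 7.09% were called. The median of the 33 was -0.05 on HFD and -0.03 on ND, against -0.29 and -0.12 in the members. Acot2, a mitochondrial acyl-CoA thioesterase, had 4.86, 4.24, 5.56 and 6.29 in TG, against 7.79, 6.18 and 8.13 in WT (-2.13, SE 0.44, adjusted p = 0.0102), with 1 TG array above the lowest WT array. Slc25a17, the peroxisomal carrier of coenzyme A, fell in TG on HFD (-0.53, SE 0.10, adjusted p = 0.00477) and on ND (-0.65, SE 0.11, adjusted p = 0.00236). It had 6.87, 6.97, 6.86 and 6.89 in TG on HFD, against 7.37, 7.35 and 7.57 in WT, and 6.93, 6.97 and 6.97 in TG on ND, against 7.51, 7.58 and 7.74 in WT. The gene that rose was Oxct1, which lets extrahepatic tissues burn ketone bodies (0.70, SE 0.14, adjusted p = 0.00657). Its probe set was dim, at 3.55, 3.75, 3.40 and 3.24 in TG on HFD, against 2.77, 2.57 and 3.01 in WT. Pex3 and Pex13, which take part in building peroxisomes, were the 2 of 12 biogenesis genes that fell there (-0.43 and -0.54, adjusted p = 0.0219 and 0.015). Elsewhere the 33 oxidation and ketone genes did not always lean with the members. Their median for HFD against ND was -0.11 in WT, -0.10 in KO and -0.07 in TG, against 0.11, -0.19 and 0.02 in the members. For KO against WT it was -0.02 on HFD and -0.01 on ND, against -0.21 and 0.02. For KO against TG it was 0.09 on HFD and -0.01 on ND, against 0.08 and 0.20. Bdh2 fell in HFD against ND in WT (-0.61, SE 0.15, adjusted p = 0.0493), where Bdh1 rose.

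Abcd2, a peroxisomal transporter of very long acyl chains, was low in WT on ND alone. It had 2.82, 1.91 and 1.83 there, between 5.41 and 6.73 in WT on HFD (4.09, SE 0.51, adjusted p = 0.000294), between 4.28 and 4.86 in TG on ND (2.42, SE 0.51, adjusted p = 0.0218) and between 5.10 and 6.17 in KO on ND (3.27, SE 0.51, adjusted p = 0.00115). These 3 comparisons share the WT ND arrays. Of the regulators, 4 of 19 rose in KO against TG on ND, namely Ppara (0.84, SE 0.19, adjusted p = 0.0163), its coactivators Ppargc1a (0.90) and Ppargc1b (1.01) and the phosphatidate phosphatase Lpin1 (3.56). In this comparison 1.71% of all genes rose, and with the clock score in the model 2 genes passed, against 931 without it. Ppara had 7.02, 7.15 and 7.21 in KO, against 6.43, 6.33 and 6.10 in TG. Ppara did not pass between TG and WT on either diet (-0.20, adjusted p = 0.684, on HFD and -0.39, adjusted p = 0.54, on ND). Among 7 genes known to be higher in fed liver, only the lipogenic Thrsp passed in HFD against ND in WT (2.56), and their mean lay between 7.49 and 8.21 in WT on HFD, against 6.48 to 6.58 in WT on ND. Thrsp also rose in HFD against ND in TG (2.26) and in KO on ND, against WT (3.03) and against TG (2.84). Of 6 genes known to be higher in fasted liver, Fgf21 rose in HFD against ND in WT (1.94). Pck1, the gatekeeper of gluconeogenesis, fell in HFD against ND in KO (-1.08) and in KO against TG on HFD (-0.71), and rose in KO on ND, against WT (0.91) and against TG (0.72). Feeding state is not given in the labels, and its part in the results was not tested.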

How the data were processed

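Total RNA of whole liver from 19 mice in 6 groups was labelled with biotin and hybridised to Affymetrix arrays, 400 ng per sample, per the labels' protocols. The deposited table holds log2 values for 41345 probe sets, normalized between arrays by the authors. RMA, affy and limma appear, without versions, per the submitters' processing notes, and the log base was inferred from RMA and the range of the values. Array medians lay between 0.983 and 1.075, and 1.81% of values were below 0. Precision is limited by the number of mice.

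Of the probe sets 23521 carry 1 gene symbol, 1814 several and 16010 none here. Symbols were checked by Entrez identifier against RefSeq GRCm38.p6 (23328 matched, 0 changed). The highest-mean probe set stood for each gene (22180 genes, no filter on dim genes).

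One limma 3.58.1 model (lmFit and eBayes, R 4.3.3) of 6 group means on all arrays gave 9 comparisons of 2 groups, 2 differences of diet effects and an F test, with 13 residual and 4.76 prior degrees of freedom. P-values are two-sided and adjusted by Benjamini-Hochberg over all genes within each comparison. The procedure was tested on simulated data. Members, roles, lists and tests were chosen with earlier results of these data known. Per-array values are given for members that passed, up to 6 in each direction in a comparison, and for Cpt1a, Acadm, Hadha, Ehhadh, Bdh1, Pdk4 and Angptl4. The text names other members chosen after their values were seen. Alternatives were a filter at a mean of 2, repeated quantile normalization, a trended robust prior, probe set means, the clock score as covariate, the compared arrays alone and leaving out each array. Replicates were taken as separate mice because each title has its own animal number, and the labels name no batch. In the titles the animal numbers of all HFD mice are longer than those of all ND mice, and the serial numbers run in blocks by group. What these numbers stand for is not given, and anything that goes with them cannot be told apart from diet or group.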

Additional observations from a re-analysis of the deposited data

Results flagged for a closer look

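Cpt2 had its lowest TG HFD value in replicate 2, at 7.14, far from the 7.58 to 7.65 of the other 3 arrays, with a gap of 0.861 of the whole range of the group, above Dixon's limit for 4 samples. It was 1 of 31 members examined in that group, and chance marks about 1 in 20. The same array had the lowest value of the group for 23 of 31 members.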

How the results depend on the processing

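No paired analysis was possible because the labels give no replicate numbers that groups share. With few members past the threshold, their number moved easily. It stood at 2, 1 and 2 for HFD against ND in WT, KO and TG. Repeated quantile normalization gave 1 in WT and 0 in KO. In KO the trended prior gave 0 and probe set means 0. The compared arrays alone gave 0 in WT, 2 in KO and 0 in TG, and the clock score as covariate gave 0 in all 3 genotypes. For TG against WT on HFD (2) the filter on dim genes gave 4, the trended prior 5 and the compared arrays alone 0. For KO against WT on ND (2) the clock score gave 0 and the compared arrays alone 1. For KO against TG the clock score gave 0 on ND (4), and on HFD (1) the filter and the trended prior gave 2 each and the compared arrays alone 0. The F test (7) gave 4 with the clock score. Leaving out 1 array gave 0 to 1 in WT, 0 in KO and 1 to 2 in TG for diet, 1 to 7 for TG against WT on HFD, 0 to 2 for KO against WT on ND, 2 to 3 and 0 to 4 for KO against TG on ND and on HFD, and 5 to 9 in the F test. In TG against WT on ND, KO against WT on HFD and both differences of diet effects, no member passed under any alternative run.

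The sign turned for 1 called gene. Cpt1a in HFD against ND became -0.0053 in WT and -0.0889 in TG with the clock score, under which its SE in WT was 0.30, against 0.14 without it. Over all genes the number of calls with the clock score was 5 (293 without it) in WT, 0 (201) in TG and 67 (178) in KO for diet, 16 (661) for KO against WT on ND and 2 (931) for KO against TG on ND. The compared arrays alone gave 248 calls (791 with all arrays) for TG against WT on HFD. Of the 14 calls of single members 4 held with each array dropped in turn, namely Crat in TG against WT on HFD, Crot in HFD against ND in TG, and Pex11a and Cpt1a in KO against TG on ND.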
